A study of Bos taurus with 8 samples.

Results

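The enzymes that split glucose to pyruvate and pyruvate to lactate were followed through every array probe whose accession maps to the bovine genes HK3, GPI, ALDOA, TPI1, GAPDH, PGK1, PGAM1, ENO1, LDHA or LDHB. The rule found 9 of the 10 genes, out of 12639 genes named on the array, and for them 37 of its 43653 probes. No probe mapped to HK3. RNA came from neutrophils isolated from jugular vein blood of female Holstein Friesian cows around calving and was hybridised in a single colour. The group C-14 holds 4 arrays of blood taken 14 days before the expected calving, and the group C+7 holds 4 arrays of blood taken 7 days after calving. The cows' age is not given in the sources used here, and no treatment is named for any sample. The series names 3 cows, fewer than the 4 arrays of either time, and which cow gave which array is not stated. If each array holds RNA of a single cow, some of the 4 arrays of each time therefore share a cow. Whether any of 3 arrays of a time do is not known. P-values that count arrays of the same cow as separate are too small. All arrays before calving lay on a slide and all arrays after calving on another, so that in each comparison the slide and the time cannot be told apart.

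Glycolysis turns glucose into pyruvate in the cytosol with a net gain of ATP, and lactate dehydrogenase then reduces pyruvate to lactate, which restores the NAD+ that the GAPDH step uses. Neutrophils hold few mitochondria and depend on glycolysis for ATP, and they use it while they migrate, take up particles and release granules. Lactate dehydrogenase is a tetramer of A and B chains, coded by LDHA and LDHB. The A chain is known from tissues that make lactate, and the B chain from tissues that oxidise it.

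In these preparations LDHB, ALDOA and TPI1 each had at least 1 probe well above background on all 6 brighter arrays, and LDHA had none on any array. No probe of the family passed the test between the times, where 5.13% of all tested probes of those 6 arrays did. The highest difference after minus before belonged to a GAPDH probe (2.72 on the log2 scale, SE 1.44, limma adjusted p = 0.356, n = 3 arrays at each time). That probe came into the test only through the arrays after calving, which favours a difference toward that time. Its difference was 1.05 (SE 0.22, limma adjusted p = 0.112) without the 1 brighter array before calving on which it was not well above background. A probe of LDHB had higher scaled values on all 3 arrays after calving than on any of the 3 before, while its unscaled intensities overlapped. Its difference was 0.79 (SE 0.25, limma adjusted p = 0.161), and 0.16 with scaling over all probes. The 2 other measured LDHB probes overlapped between the times. Of all probes well above background on the 6 arrays, 28% did not overlap, 9.99% being higher after calving. Of TPI1, the 2 tested probes were both at negative values (-0.62 and -0.72), and at positive ones (0.85 and 0.74) in the deposited series matrix, where the median of all tested probes was 1.03.

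Signal was low throughout. Between 387 and 4486 probes, or 0.887% to 10.3% of the array, were called well above background by the extraction software, and the arrays that carried over 2000 such probes were replicates 1 to 3 of each time, called the 6 brighter arrays here. Of the 12 fixed neutrophil markers 10 had a probe, and 8 of these were well above background on at least 1 brighter array, among them CXCR1, CXCR2 and S100A9, while ITGAM and S100A8 were not. Of 8 T cell markers with a probe, 6 were well above background, CD3E and CD247 included, and CD3D and CD8B were not. The number of arrays limits the precision of all values below.

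Of the 37 probes, 15 (40.5%) were well above background on at least 1 of the 8 arrays, against 16.7% of all probes. Replicates 1 to 4 before calving had 11, 6, 12 and 0 such probes of the family, and replicates 1 to 4 after calving had 10, 9, 10 and 1. On replicate 4 of each time the family was therefore almost unmeasured, and the single call there was a GPI probe after calving. None of the 296 member spots was flagged as an outlier or saturated.

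**Figure D1:**
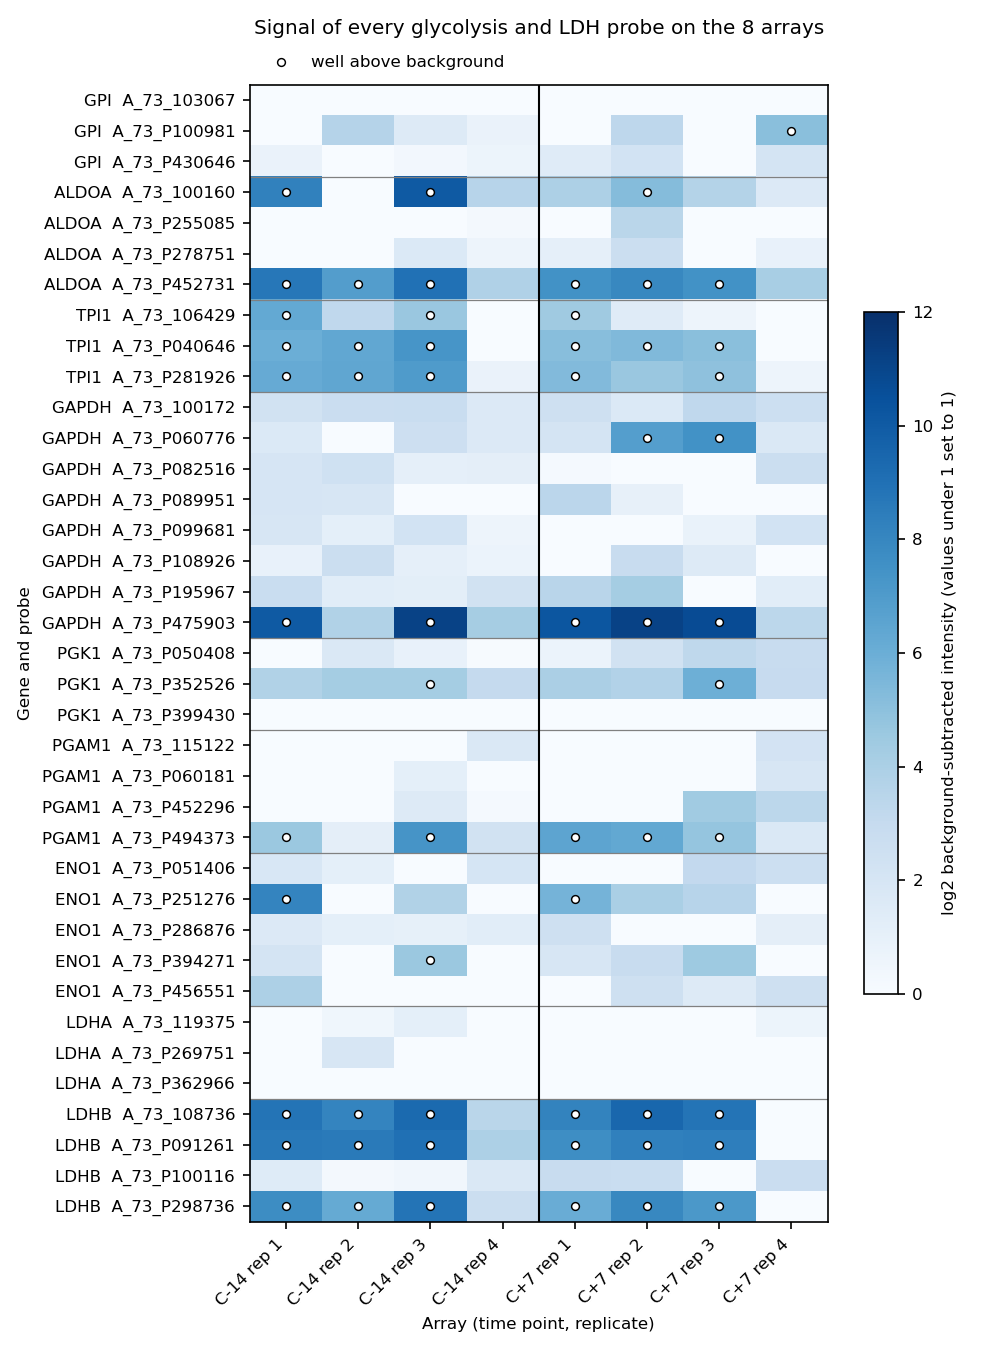
Each row is 1 of the 37 probes, grouped by gene in pathway order, and each column is 1 array; colour gives log2 background-subtracted intensity (values under 1 set to 1), and a circle marks a spot well above background. LDHB, ALDOA, TPI1 and GAPDH each have at least 1 bright probe and LDHA has none, while replicate 4 of each time is pale, with 0 and 1 circles.

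Probes of the same gene differed in whether they gave any signal. The 22 probes that were never well above background had background-subtracted intensities between -11.5 and 20.8, with a median of 1.15. They included 6 of 8 GAPDH probes, 3 of 5 ENO1 probes, 3 of 4 PGAM1 probes, 2 of 3 PGK1 probes, 2 of 3 GPI probes, 2 of 4 ALDOA probes and 1 of 4 LDHB probes. All probes of a gene carried the same transcript accession. For comparison, 353 named genes of the array had at least 3 probes with at least 1 of them well above background on all 6 brighter arrays, and 684 of their 1365 probes (50.1%) were so on at least 1 array. Of the 11 probes of ALDOA, TPI1 and LDHB, the members in that class, 8 were. A single dim probe is thus no measure of a gene here, and no level of a probe is set against that of another below.

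Hexokinase 3, a hexokinase of myeloid cells that phosphorylates glucose, could not be followed. GPI, the isomerase that turns glucose 6-phosphate into fructose 6-phosphate, was not well above background on any brighter array. Its probe A_73_P100981 read -1.25, 12.5, 2.85 and 1.70 on the 4 arrays before calving and -1.47, 9.96, -7.50 and 33.9 on those after, as background-subtracted intensity, and only the last was called well above background. That array had the fewest detected probes of all 8.

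ALDOA codes for aldolase A, which splits fructose 1,6-bisphosphate. Its probe A_73_P452731 had background-subtracted intensities of 411, 115, 506 and 14.3 on replicates 1 to 4 before calving and of 181, 247, 181 and 17.0 after. The 2 lowest values were those of replicate 4 of each time, and neither was well above background. A second probe, A_73_100160, read 298, -1.03, 1050.4 and 11.5 before calving and 14.9, 37, 12.7 and 3.09 after. It was high on replicates 1 and 3 before calving, not well above background on replicate 2 and at most 37 after, a course the first probe did not follow.

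TPI1, triose phosphate isomerase, interconverts the aldolase products so that the whole sugar can go on. Probe A_73_P040646 read 62.1, 81.2 and 157 on the 6 brighter arrays before calving and 34.7, 41.7 and 33.7 after, with -0.902 and 0.155 on replicate 4 of the times. Probe A_73_P281926 read 71.6, 85.4 and 128 before and 39.8, 24.6 and 31.3 after. On both probes each raw intensity after calving lay below each before, among the 6 arrays, but the 75th percentile used to scale the arrays was also 545, 342 and 725 before calving and 272, 366 and 306 after. The third probe, A_73_106429, read 75.7, 9.35 and 24.9 before and 21.7, 2.66 and 1.51 after, and was well above background on replicates 1 and 3 before calving and on replicate 1 after.

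GAPDH oxidises glyceraldehyde 3-phosphate and is widely used as a reference gene. Its probe A_73_P475903 read 1047, 13.8, 2251 and 18.4 before calving and 1201, 2232, 1681 and 10.05 after. It was bright on 5 arrays and not well above background on replicate 2 before calving and on replicate 4 of each time. Probe A_73_P060776 read 112 and 178 on replicates 2 and 3 after calving and no more than 5.88 on the other 6 arrays. The 2 measured GAPDH probes therefore differed in which arrays they lit up on.

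PGK1, phosphoglycerate kinase, makes the first ATP of the lower pathway, PGAM1 moves the phosphate of the product, and ENO1, enolase, removes water from it. For PGK1 only probe A_73_P352526 was ever well above background, at 19.0 on replicate 3 before calving and at 61.8 on replicate 3 after. For PGAM1 only A_73_P494373 was, with 23.7, 2.25, 160.5 and 4.88 before calving and 89.1, 80.3, 26.8 and 3.40 after. The ENO1 probe A_73_P251276 read 271, -2.53, 13.9 and -10.7 before calving and 51.7, 16.6, 11.5 and -5.01 after, and was well above background on replicate 1 of each time only. A second ENO1 probe, A_73_P394271, passed on a single array, at 24 on replicate 3 before calving.

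The 3 LDHA probes read between -8.35 and 3.7 over the 8 arrays, with a median of -3.92, and none was well above background. LDHB had 3 probes well above background on all 6 brighter arrays. A_73_108736 read 450, 273 and 630 before calving and 282, 706 and 455 after. A_73_P091261 read 406, 375 and 515 before and 203, 310 and 335 after. A_73_P298736 read 207, 74.3 and 462 before and 67.4, 243 and 143 after. On replicate 4 of the times the 3 probes lay between -2.55 and 15.2, none well above background. The fourth, A_73_P100116, stayed between -6.43 and 7.14 on all arrays. Intensities of different probes cannot be set against each other, so LDHA is not compared with LDHB in level, and a change in their ratio could not be computed.

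The processed intensity, which the extraction software writes beside the background-subtracted one, followed it on 7 arrays and departed from it on replicate 3 before calving, the only array whose statistics hold a fitted multiplicative surface (root mean square 1.83, 0 on the others). On the other 7 arrays the ratio of processed to subtracted intensity of the 47 member spots well above background was 1.00. On that array the same ratio ran from 0.141 to 4.19 over 12 member spots. The 3 LDHB probes went from 630 to 329, from 515 to 72.3 and from 462 to 174. The GAPDH probe A_73_P475903 went from 2251 to 4619, and the PGAM1 probe A_73_P494373 from 160.5 to 672. The 25 member spots of that array that were not well above background had subtracted intensities of -6.69 to 13.9 but processed intensities of 4.50 to 659. LDHA thus appears in the processed column of that array at 450, 252 and 63.1, where its subtracted intensities were 2.11, -3.81 and -6.69. Among the member spots of the other arrays that were not well above background, the highest processed intensity was 24.6.

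**Figure D2:**
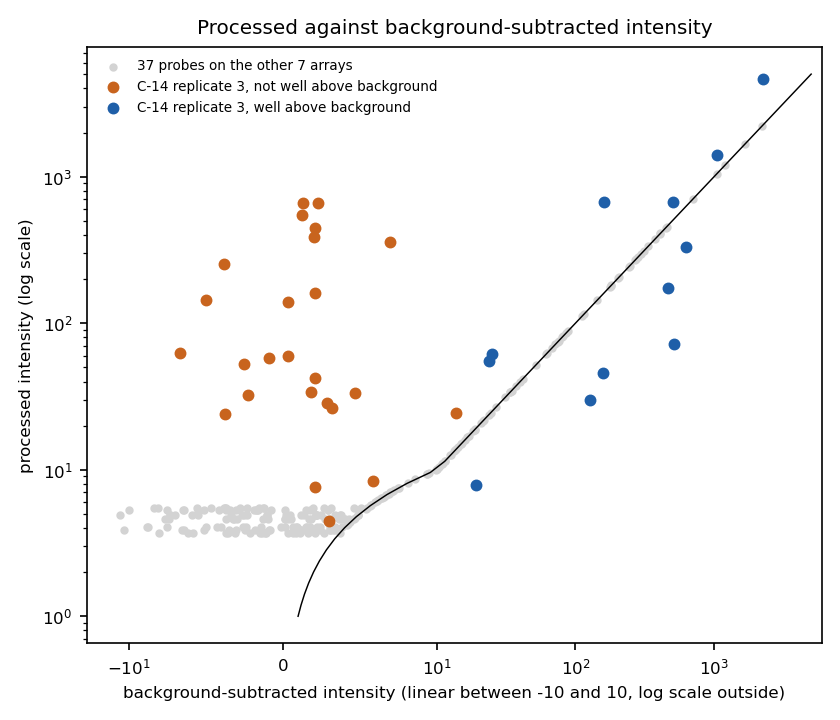
Processed intensity (log scale) is plotted against background-subtracted intensity (linear between -10 and 10, log scale outside) for the 37 probes, with grey points for 7 arrays and coloured points for replicate 3 before calving; the line marks equal values. Grey points follow the line or lie at each array's lowest processed value, while the coloured points leave it, up to 659 for spots not well above background.

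The question of the design is whether expression changed from before to after calving. In the fit of all 8 arrays (limma on log2 processed intensity, with each array's 75th percentile of the 115 probes detected on all 8 subtracted), a probe was tested where it was well above background on every array of at least 1 time. None of the 37 family probes met this. Replicate 4 had 0 of them well above background before calving and 1 after, and 22 were not so on any array. Without replicate 4 of each time, 8 of the 37 met it. At an adjusted p of at most 0.05, limma called 0 (0%) of the 470 tested probes, with 7 under an unadjusted 0.05, and 14 when arrays were weighted.

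The comparison of the family therefore rests on the 6 brighter arrays, a choice made with earlier results of these data known. Background-subtracted intensity was divided by the 75th percentile of the 1091 probes that all 6 arrays detected and raised to a common floor at log2 -3.54, the highest of the arrays' lowest scaled signals well above background. Of 2204 probes tested, 113 (5.13%) passed, 42 higher (1.91%) and 71 lower (3.22%) after calving. When all probes set the scale, the split was 17 higher and 99 lower. It was 10 and 2 with processed signal, 5 and 0 in the series matrix, and 42 and 15 without replicate 1 after calving. The total was 4 without replicate 3 after calving, 8 without replicate 2 after calving and 0 with the replicate number as a block. Of the 37 family probes 8 were tested and 0 passed. By limma 1 of the 8 had an unadjusted p under 0.05, beside 455 of all 2204, and limma with array weights or with trend and robust also called 0. The median difference of the 8 was 0.19, beside -0.06 over all tested probes, and it was -0.45 with scaling over all probes and -0.26 without replicate 2 before calving. For 3 of the 8 (GAPDH, PGAM1 and A_73_P281926 of TPI1) the filter was met through 1 time point only, which favours a difference toward that time.

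The LDHB probe A_73_108736 was at scaled log2 signals of -0.28, -0.32 and -0.20 before calving and 0.05, 0.95 and 0.57 after. The times did not overlap on this scale, and the means were -0.27 ± 0.06 and 0.52 ± 0.45 (SD, n = 3). The unscaled intensities did overlap, at 450, 273 and 630 before calving and 282, 706 and 455 after. The difference of 0.79 had a 95% interval of 0.16 to 1.43 (limma, unadjusted p = 0.0236, adjusted p = 0.161). Of the 5 family probes well above background on all 6 arrays it was the 1 without overlap, where 28% of the 1091 such probes on the array did not overlap (9.99% higher and 18.1% lower after calving). With scaling over all probes its value was 0.16, and the median of all tested probes moved to -0.58.

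Its companion A_73_P091261 was at -0.43, 0.13 and -0.49 before calving and -0.42, -0.24 and 0.13 after. These values overlapped, and their difference was 0.09 with an interval of -0.54 to 0.71 (limma adjusted p = 0.873), and -0.060 with normexp. The third LDHB probe, A_73_P298736, ranged from -2.20 to -0.65 before and from -2.01 to -0.59 after, a difference of 0.18 with an interval of -1.21 to 1.57. The 3 probes of LDHB therefore gave values of 0.09 to 0.79 for the same transcript accession, and the intervals of all 3 overlapped.

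Neither of the 2 tested TPI1 probes passed. A_73_P040646 was at -3.13, -2.07 and -2.21 before calving and -2.97, -3.13 and -3.19 after, so that replicate 1 before calving lay among the arrays after calving. Its difference was -0.62 (SE 0.31, limma adjusted p = 0.341). A_73_P281926 was at -2.93, -2.0 and -2.50 before and -2.77, -3.54 and -3.29 after, the value of -3.54 being the floor, with a difference of -0.72 (SE 0.32, adjusted p = 0.288). Without replicate 1 before calving, the array that overlapped, A_73_P040646 was at -1.0 and passed (limma adjusted p = 0.0298). That fit had 2 arrays before against 3 after, and 121 of all 2386 tested probes passed in it. The probe did not pass when any other array was left out.

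The GAPDH probe A_73_P475903 was at 0.94, at the floor of -3.54 and at 1.63 before calving, and at 2.14, 2.61 and 2.46 after. The arrays after calving were all above those before, and the interval of the difference of 2.72 ran from -0.94 to 6.38. The probe met the filter through the arrays after calving only, which favours a difference in that direction. Without replicate 2 before calving, where it lay at the floor, the difference was 1.05 (SE 0.22, limma adjusted p = 0.112). That array lacked other signals too. Among probes well above background on the 5 other brighter arrays, 330 of 1421 (23.2%) were not so on replicate 2 before calving, against 0.908% to 8.63% for the same count on the other 5 arrays. The GAPDH probe and the PGAM1 probe A_73_P494373 are among the 330.

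ALDOA gave 2 different pictures. Probe A_73_P452731 was at -0.41, -1.57 and -0.52 before calving and -0.59, -0.57 and -0.76 after, a difference of 0.19 (SE 0.34, limma adjusted p = 0.776), with replicate 2 before calving the lowest of the 6. Without that array it was at -0.24, and with processed signal at -0.045. Without the same array the second probe, A_73_100160, met the filter through the arrays before calving alone, at -3.40 (SE 0.44, limma adjusted p = 0.0480) in a fit of 2 arrays against 3. After calving it was well above background on replicate 2 only, so this value depends on the floor and is no measured fold. It was not tested with all 6 arrays because it had no signal on replicate 2 before calving. In the fit without that array, 169 of all 2963 tested probes passed.

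PGAM1 was at the floor on replicates 1 and 2 before calving, at -2.18 on replicate 3, and at -1.61, -2.19 and -3.51 after. Its difference of 0.65 (SE 0.64, limma adjusted p = 0.619) lay within the spread of the arrays. That size depends on the floor, and was 2.21 (SE 1.24, limma adjusted p = 0.328) without a common floor. The difference ran from 0.22 to 2.87 over the settings in which the probe left the floor, and passed in none. Replicate 1 before calving was called well above background at an intensity of 23.7, under the 47.03 that the common floor stands for on that array.

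**Figure D3:**
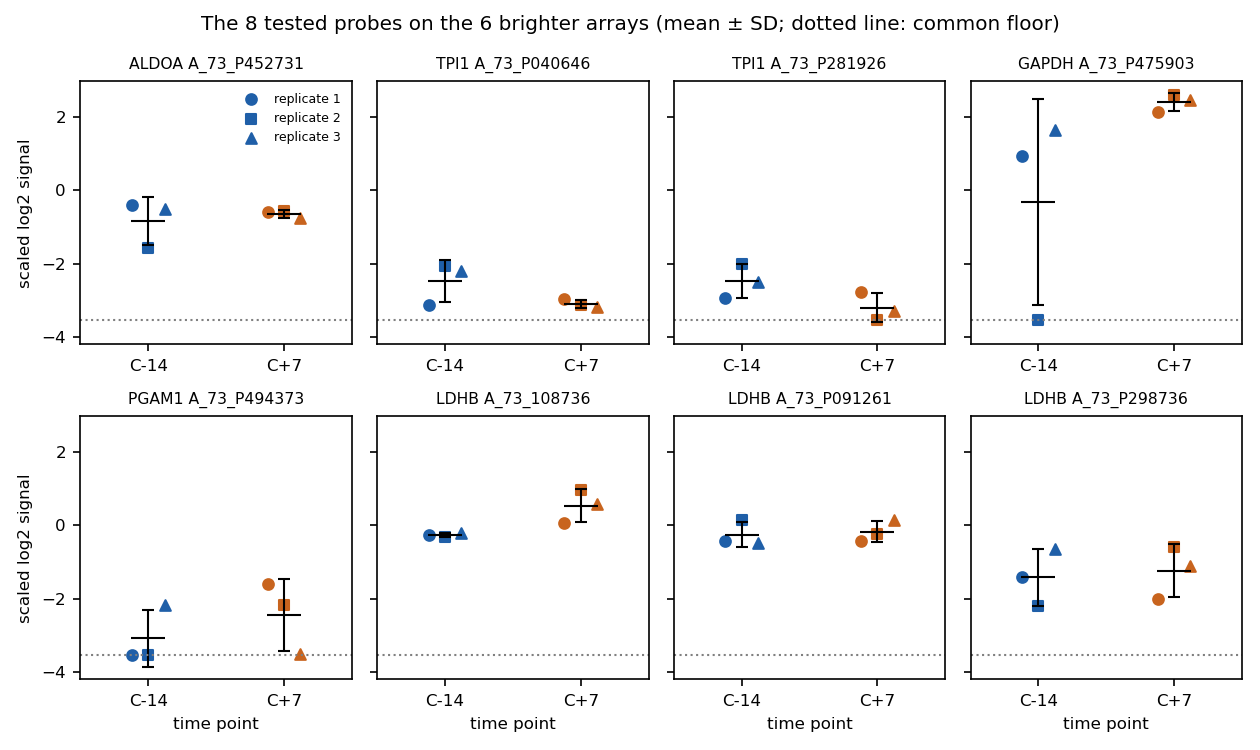
Scaled log2 signal of the 8 tested probes on replicates 1 to 3 of each time, with mean and SD as bars and the common floor of -3.54 as a dotted line. LDHB A_73_108736 is higher on all arrays after calving, GAPDH lies at the floor on replicate 2 before calving, and the other 6 probes overlap between the times.

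A difference between 2 probes within an array does not depend on how the array is scaled; its size says nothing of the genes' levels, and only its change between the times was compared. The 3 pairs of LDHB (mean of 3 probes), ALDOA (A_73_P452731) and TPI1 (A_73_P040646) were compared, a choice made after the values were seen. LDHB minus TPI1 was at 2.43, 1.28 and 1.76 on the log2 scale before calving and at 2.18, 3.17 and 3.05 after. The times overlapped, and the gap was larger by 0.98 after calving (SE 0.46, exact two-sided permutation p = 0.200, 0.600 after Benjamini-Hochberg adjustment over 3 pairs). ALDOA minus TPI1 was larger by 0.82 (SE 0.65, exact permutation p = 0.400, adjusted 0.600), and by 0.25 without replicate 2 before calving. LDHB minus ALDOA differed by 0.16 (SE 0.42, exact permutation p = 0.900, adjusted 0.900). With 3 arrays against 3 the smallest p such a test can give is 0.100.

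**Figure D4:**
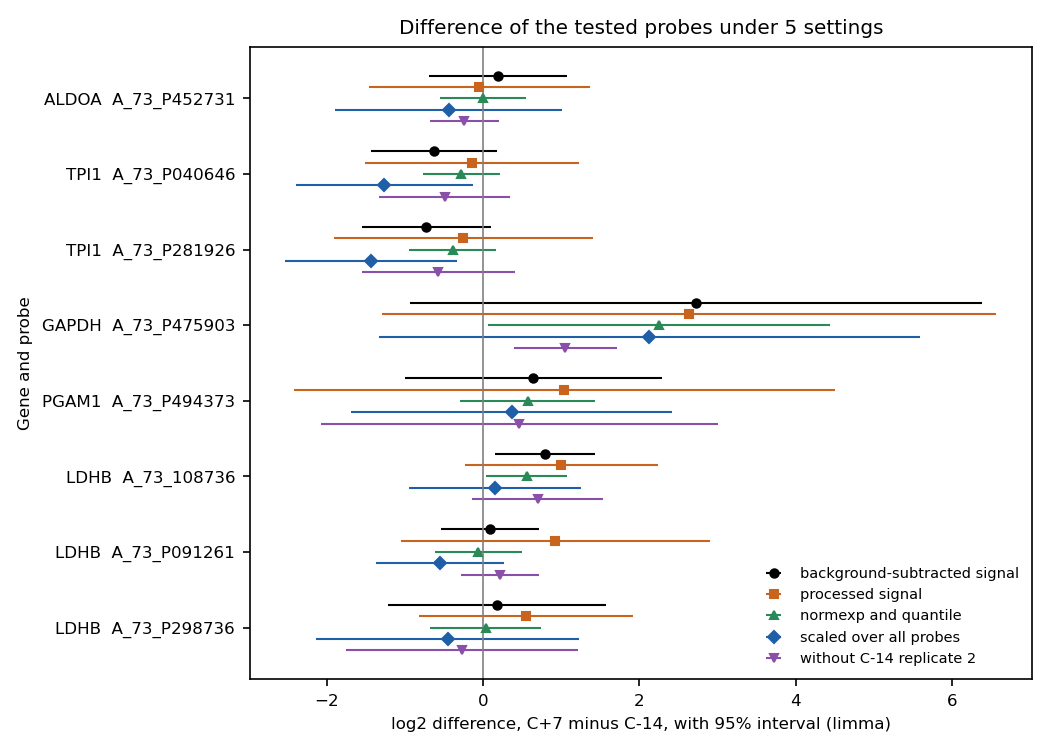
Log2 difference after minus before calving with its 95% interval (limma) for the 8 tested probes under 5 settings: background-subtracted signal, processed signal, normexp with quantile normalization, scaling over all probes, and without replicate 2 before calving. The GAPDH interval runs from -0.94 to 6.38 on background-subtracted signal, and both TPI1 probes have negative differences in all 5 settings shown.

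Genes around the family were looked up in a list of 71 genes of other glycolytic isozymes, glucose and lactate transport, the pentose phosphate path, glycogen, pyruvate entry and regulators. Of the list, 66 genes had a probe, 9 were tested on the 6 brighter arrays, each by 1 probe, and by limma 0 of the 9 passed, beside 5.13% of all tested probes, with 1 at an unadjusted p under 0.05, beside 455 of all 2204, and a median difference of 0.37 beside -0.06 over all tested probes. Of the 9, only TKT, SLC2A3 and GYS1 were well above background on all 6 arrays. PDK3, GYG1 and GAPDHS met the filter through the arrays after calving only, and ENO3, PGAM5 and PGM1 through those before only. This favours a difference toward the time through which each was tested, and the median carries it too. TKT, the transketolase of the pentose phosphate path, was at 0.36 (SE 0.28), with background-subtracted intensities of 4120, 5046 and 7937 before calving and 3171, 5392 and 4639 after. It was the only gene of the list or the family tested on all 8 arrays, at -0.24 (SE 1.31). SLC2A3, a glucose transporter, was at 0.37 and GYS1, which makes glycogen, at 0.41. GYG1, the primer of glycogen, was at 0.47 (SE 0.34), with replicate 2 before calving at the floor. PGM1, which links glycogen to glycolysis, was at -0.16 with all 3 arrays after calving at the floor. PDK3, a kinase that holds back pyruvate dehydrogenase, was at 1.03 (SE 0.41, limma adjusted p = 0.241). It lay at the floor on replicate 2 before calving.

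Of the other isozymes, the enolase gene ENO3 was at -0.24, with replicate 3 after calving at the floor. PGAM5, which despite its name is a protein phosphatase of mitochondria, was at -0.37. Like PGM1, it lay at the floor on all 3 arrays after calving and on replicate 1 before. GAPDHS, the GAPDH isozyme of sperm, was at 0.39 (SE 1.04), Its probe read 311, -9.65 and 728 before calving and 69.9, 303 and 159 after, and like the GAPDH probe it was not well above background on replicate 2 before calving. Whether this probe also binds GAPDH transcripts was not tested.

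Summed marker signals of several cell types, neutrophils included, differed between the times on the same arrays. The summed scaled signal of the 19 probes of the neutrophil list ran from 12.8 to 25.6 before calving and from 71.7 to 87.9 after, and 2 of its 7 tested probes rose (MMP9 and S100A12). That of the 22 probes of the T cell list ran from 5.56 to 7.29 before and from 1.53 to 1.81 after, with 3 of 5 tested probes lower (CD247 on both probes, and CD3E). Over all tested probes 1.91% were called higher and 3.22% lower, and none was called with the replicate number as a block. Of single probes well above background on all 6 arrays, 28% did not overlap between the times. The monocyte list ran from 0.609 to 1.06 before and from 0.245 to 0.336 after, with CSF1R, its 1 tested probe, lower. Of its 4 genes with a probe, 2 were well above background on a brighter array, and CD68 and VCAN were not. The eosinophil list had a probe for 2 of its 6 genes, and only ALOX15 was well above background. It is thus in effect 1 gene, at 1.03 to 1.37 before and 0.139 to 0.161 after, with ALOX15 lower. The natural killer list ran from 0.337 to 0.553 before and 0.133 to 0.213 after, with GNLY lower. Of its 6 genes only GNLY and NKG7 were well above background, and GZMB, KLRB1, NCR1 and PRF1 were not. B cell markers overlapped, at 0.505 to 1.33 before and 0.616 to 0.955 after, and erythroid markers did not, at 0.416 to 1.28 before and 1.32 to 2.59 after, and neither had a called probe. The platelet markers PF4 and ITGA2B were not well above background on any brighter array. The part of these cells in the values of LDHB, TPI1, GAPDH and ALDOA was not tested. In a bulk sample, fewer cells of a type and less RNA per cell cannot be told apart.

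The genes whose course over the 6 brighter arrays was most like that of the LDHB probe A_73_108736 were MAP1LC3A (Pearson r = 0.968), MTMR2 (0.953) and POLD2 (0.946), among 1091 probes well above background on all 6. The 6 points share their scaling and their slides, and the highest of many correlations over so few points is a description only.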

How the data were processed

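Deposited by the authors were the spot intensity values of 8 single-colour arrays from Agilent Feature Extraction (version 10.10.1.1 per the file headers, 9.1 per the submitters' processing notes), with probe annotation on UMD_3.1. The deposited series matrix holds log2 values. Its rows follow the scanner files' probe order, checked by differences between arrays (correlation 1.00 for each). They run in the direction of log2 processed intensity, and their centring and scale are unstated. Its column medians were -0.13, -0.03, -2.61, 0.03, 0.03, 0.03, -0.06 and 0.02 in the order of replicates before, then after calving. Whether a spot is well above background is the deposited software's call.

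Control and outlier spots were left out, spots of a probe averaged (well above background where over 0.5 of them were), and probes kept separate. Accessions were named through RefSeq genes of ARS-UCD2.0 (26832 of 43653 probes), for names alone. Limma 3.58.1 in R 4.3.3 was used (lmFit, eBayes, two-sided, Benjamini-Hochberg over all tested probes), after a check on simulated data. The list, the members and the 6 arrays were chosen with earlier results of these data known. The text names all members, the 8 tested genes of the wider list with the highest mean signal (none passed), and the 3 genes most like the brightest member probe detected on all 6 arrays. PGM1 falls outside this rule and was added after its values were seen. No probe sequence was used here. The intensity of the planned normexp alternative was the median, not the mean, signal. Where nothing says that arrays came from separate cows, p-values measure only the spread between these arrays. Arrays with the same replicate number did not all deviate together, and the numbers were not taken as pairs, though this does not exclude a pairing.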

Additional observations from a re-analysis of the deposited data

Results flagged for a closer look

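A value far outside its group of 4 arrays was found in 4 of 32 such groups. About 1 in 20 would be picked out by chance if values were independent and normally distributed. The groups share arrays and the rule used unlogged intensities, so this rate is no measure of chance here. ENO1 probe A_73_P251276 stood at a background-subtracted intensity of 271 on replicate 1 before calving, with -10.7 to 13.9 on the others. PGAM1 probe A_73_P494373 stood at 160.5 on replicate 3 before calving, with 2.25 to 23.7 on the others. PGK1 probe A_73_P352526 stood at 61.8 on replicate 3 after calving, with 7.53 to 15.9 on the others. After calving, replicate 4 had 1 family probe well above background and the others 9 to 10. That array was already known to have the fewest detected probes of all 8.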

How the results depend on the processing

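On 8 arrays the count of 0 probes became 1 with no filter and 14 with array weights, and ranged from 0 to 1 with an array left out (1 without after-calving replicate 4). Family probes were tested there only with no filter (37), without before-calving replicate 4 (6) and without after-calving replicate 4 (7), and 0 passed. On the 6 brighter arrays the count of 113 became 12 with processed signal, 66 with normexp, 5 in the series matrix, 1 with no filter, 50 for probes detected on all arrays, 62 with trend and robust, 11 with before-calving replicate 4 added, and 4 to 169 with an array left out (68 without before-calving replicate 3; 57, 8 and 4 without after-calving replicates 1, 2 and 3). With the replicate block it was 0, and 0 on 8 arrays. No label ties the replicate numbers to a cow. Correlations of same-numbered arrays were 0.25, -0.25 and 0.28 on the 6 arrays, and 0.72, -0.043, -0.44 and 0.15 on 8. On the 6 arrays not every array matched its own number best (1 of 3 before and 2 of 3 after calving). With so few arrays, centred within each time, such correlations neither pair the numbers nor exclude a pairing. The count of family probes called, 0, became 1 of 8 without before-calving replicate 1 (TPI1), where 121 of all 2386 tested probes passed. It became 1 of 10 without before-calving replicate 2 (ALDOA), where 169 of all 2963 passed. With an array left out it ranged from 0 to 1. The family's median of 0.19 was 1.73 in the series matrix and -0.45 with scaling over all probes (-0.26 to 0.45 with an array left out), where the median of all probes was 1.03 and -0.58.

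ALDOA A_73_P452731 turned negative with processed signal (-0.045), normexp (-0.0026), scaling over all probes (-0.44) and array weights (-0.083), and ranged from -0.24 to 0.36 with an array left out. LDHB A_73_P091261 did with normexp (-0.060), scaling over all probes (-0.55) and processed signal on 5 arrays (-0.040, added after seeing the data), and ranged from -0.047 to 0.22. LDHB A_73_P298736 did with scaling over all probes (-0.45), and ranged from -0.27 to 0.59. In the series matrix TPI1 turned positive, at 0.74 for A_73_P281926 and 0.85 for A_73_P040646. LDHB minus ALDOA ranged from -0.079 to 0.45. The GAPDH probe and LDHB A_73_108736 kept a positive sign in all settings that tested them. So did the PGAM1 probe, except that with before-calving replicate 4 added it lay at the floor at both times. The cause was not tested. The planned LDHB minus LDHA difference and the median on 8 arrays could not be computed, as no probe of LDHA, and none of the family on 8 arrays, met the filter. Low signal over background limits every value.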
